A study of Danio rerio with 96 samples.

Results

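The 4 genes described here are zebrafish copies of genes known from stress responses in mammals, and they are 4 of the 25907 gene IDs of the count table. ENSDARG00000031683 is listed as FOS and is called *fosab* here, because the reference table of zebrafish genes gives *fos* as a synonym of *fosab* and lists *fosaa* under another ID. ENSDARG00000043581 and ENSDARG00000104571 are both listed as GADD45A. The files do not say which of them is *gadd45aa* and which is *gadd45ab*, so they are called GADD45A copy 1 and GADD45A copy 2 here, and these numbers are names only. ENSDARG00000094300 is listed as *nupr1a*. The genes were chosen by ID with results of these libraries known, and the contrasts of irradiated with unirradiated larvae at 37 hpf (hours post-fertilization) were treated as the values behind that choice. These contrasts are therefore described for the 4 genes without a test, and the tests below come from the other ages and from the comparisons of folic acid. At 37 hpf the comparisons of folic acid use the libraries of these contrasts, so their p-values are not free of the choice.

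Immediate early genes such as FOS are transcribed within minutes of a stimulus without new protein synthesis, downstream of MAP kinases and the factors SRF and CREB. The FOS protein pairs with JUN proteins to form the transcription factor AP-1. In mammals GADD45A is a target of p53 that is induced by ionizing radiation, and its protein binds PCNA, p21, CDK1 and the kinase MAP3K4. Its known roles are in growth arrest, in DNA repair and in signalling to the stress kinases. NUPR1 is a small nuclear protein that binds chromatin and is induced in mammalian cells by many stresses, in part through the factor ATF4 of the integrated stress response. Zebrafish carry a second NUPR1 copy, *nupr1b*.

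RNA was sequenced from the whole bodies of single larvae of an albino line (*slc45a2* b4/b4), an allele that every group carried, in 96 libraries of 16 groups with 6 larvae each. FA + XR larvae received folic acid (FA, 200 µM) from 35 hpf and X-rays (XR, 8 Gy) at 36 hpf, XR larvae received the solvent (Danieau's solution) and the same irradiation, FA larvae received folic acid alone, and Cont larvae received the solvent alone. Larvae were collected at 36, 37, 60 and 84 hpf, which for the last 3 ages is 1, 24 and 48 h after irradiation. The sources used here do not say whether larvae of 36 hpf were collected before or after irradiation, and the groups were kept in separate wells, so well and treatment cannot be told apart. The p-values measure the spread between single larvae of a well.

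Library totals ran from 243126 to 16470291 counts, with medians of 3333760, 3239916, 3562304 and 3632000 counts at 36, 37, 60 and 84 hpf. Libraries with less than 50% of the median of their age numbered 0, 6, 4 and 3 in the same order. The XR library of 581706 counts and the FA + XR library of 243126 counts at 37 hpf gave the least information on the 4 genes. At 60 hpf 2 FA libraries (5295573 and 2586967 counts) had TMM scaling factors of 0.58 and 0.62, and with plain total-count scaling the median log2 fold change of all genes moved to 0.33 in FA + XR vs. FA and to -0.36 in FA vs. Cont, against 0.06 and -0.04 with TMM. Calls at 60 hpf that were lost without these libraries are given below with both values. Markers of skeletal muscle, skin, erythrocytes, neurons and lens were detected in 84 to 96 of the 96 libraries, as whole larvae should hold. In such bulk samples, fewer cells of a type and less RNA per cell cannot be told apart. Levels are CPM (counts scaled to a common library size with TMM factors) and are compared only within a gene, since no transcript lengths were used.

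**Figure D1:**
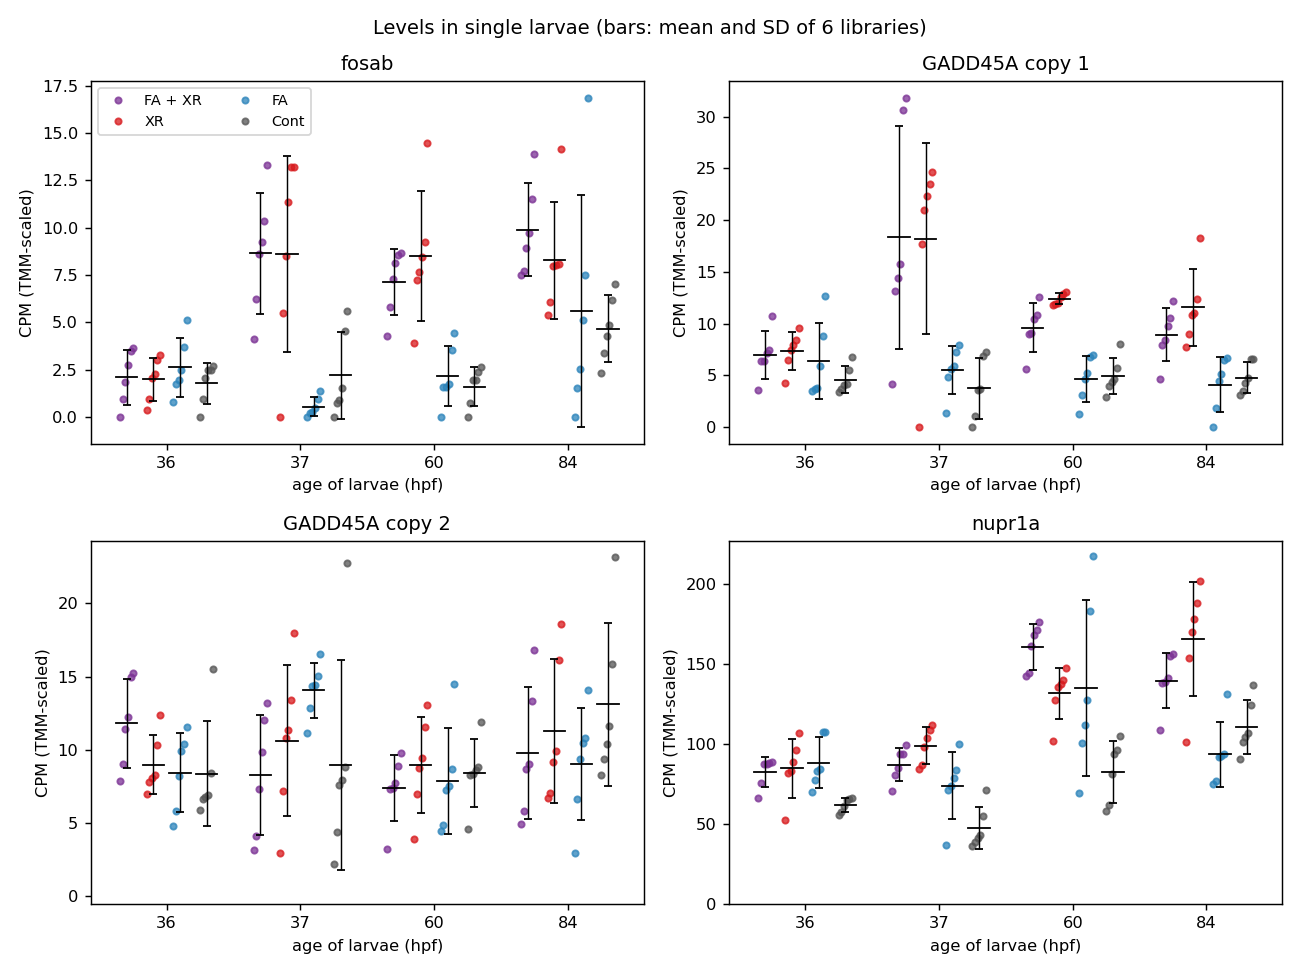
CPM of the 4 genes (vertical axes, TMM-scaled) in each of the 96 libraries by age (horizontal axes, hpf). Points are single larvae of FA + XR, XR, FA and Cont, and bars give the mean and SD of 6 libraries. At 60 hpf the 6 XR larvae lie between 11.8 and 13.1 CPM for GADD45A copy 1, above the 2.92 to 8.00 CPM of Cont, while GADD45A copy 2 overlaps between the groups at every age.

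At 37 hpf, 1 h after irradiation, *fosab* and GADD45A copy 1 were several times higher than in unirradiated larvae, with or without folic acid. For *nupr1a* all XR larvae lay above all Cont larvae, while FA + XR and FA larvae overlapped. GADD45A copy 2 overlapped in both comparisons. These contrasts are treated as the ones behind the choice of the genes, so they carry no test. The lowest, median and highest levels of *fosab* were 4.15, 8.93 and 13.3 CPM in FA + XR larvae, against 0, 0.385 and 1.38 CPM in FA larvae. In XR larvae they were 0, 9.94 and 13.2 CPM, against 0, 1.2 and 5.60 CPM in Cont larvae. Every FA + XR larva lay above every FA larva, whereas 4 of 6 XR larvae lay above all Cont larvae. The XR larva at 0 is the library of 581706 counts, in which a count of 0 allows up to 4.44 CPM. The log2 fold change of *fosab* was 4.06 (SE 0.61) in FA + XR vs. FA and 2.12 (SE 0.56) in XR vs. Cont, and without the low-depth libraries it was 4.19 and 2.51. The total of *fosab* reads was 12 in the 6 FA libraries and 25 in the 6 Cont libraries, which is the level behind the denominators of these changes.

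GADD45A copy 1 reached 4.15, 15.1 and 31.8 CPM in FA + XR larvae (lowest, median and highest), against 1.38, 5.75 and 7.98 CPM in FA larvae. In XR larvae it stood at 0, 21.7 and 24.7 CPM, against 0, 3.62 and 7.29 CPM in Cont larvae. In each pair of groups 5 of 6 irradiated larvae lay above all unirradiated larvae, and the exceptions were the 2 libraries of 243126 and 581706 counts. The log2 fold changes were 1.78 (SE 0.41) in FA + XR vs. FA and 2.04 (SE 0.44) in XR vs. Cont. These were the highest group levels of copy 1 in the series, 18.3 ± 10.8 CPM in FA + XR and 18.2 ± 9.23 CPM in XR (SD, n = 6).

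GADD45A copy 2 had 3.14, 8.59 and 13.2 CPM in FA + XR larvae, against 11.1, 14.4 and 16.6 CPM in FA larvae. In XR larvae it had 2.96, 11.1 and 17.9 CPM, against 2.24, 7.79 and 22.7 CPM in Cont larvae. The log2 fold changes were -0.63 (SE 0.35) and 0.40 (SE 0.37), opposite in sign and with overlapping groups in both comparisons. For *nupr1a* the levels were 70.5, 89.2 and 99.1 CPM in FA + XR larvae, against 36.7, 76.2 and 100 CPM in FA larvae. They were 84.4, 101 and 112 CPM in XR larvae, against 36.4, 42 and 71.1 CPM in Cont larvae. All 6 XR larvae lay above all Cont larvae, while FA + XR and FA larvae overlapped, with log2 fold changes of 1.03 (SE 0.19) and 0.27 (SE 0.19). The medians of *nupr1a* in unirradiated larvae, 76.2 CPM in FA and 42 CPM in Cont, lay further apart than those in irradiated larvae. The latter were 89.2 CPM in FA + XR and 101 CPM in XR. No effect of folic acid on the response of *nupr1a* is therefore read from these fold changes. Across all 14380 genes tested at 37 hpf, 0.153% had all XR above all Cont larvae and 0.139% all FA + XR above all FA larvae, and nothing is read from the 1 gene of the 4 in each comparison.

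**Figure D2:**
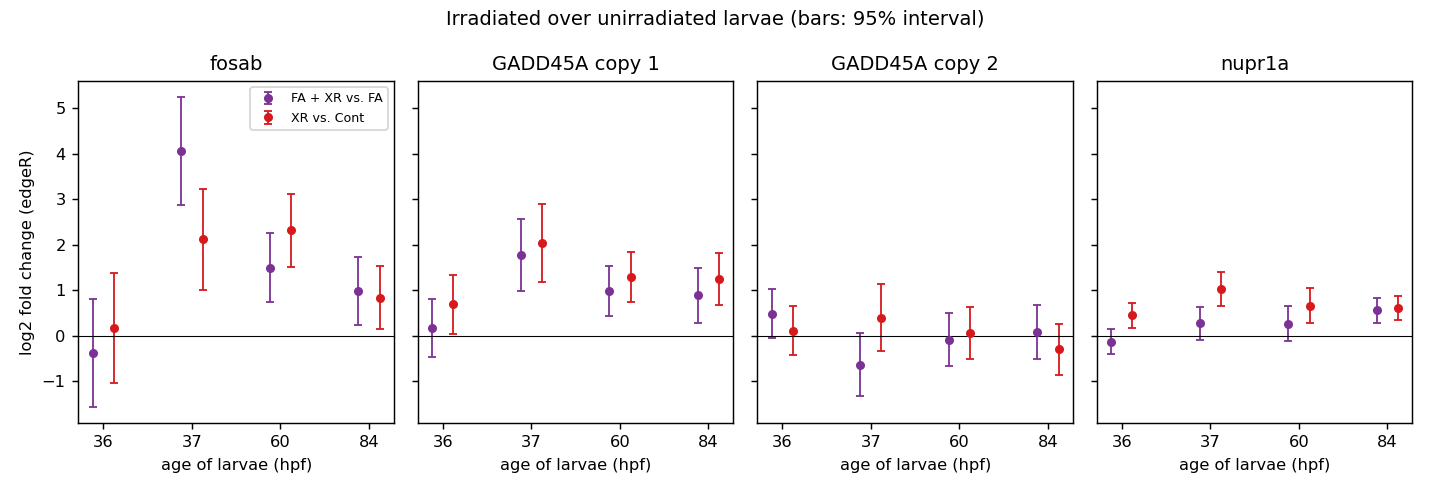
Log2 fold changes of the 4 genes in FA + XR vs. FA and XR vs. Cont (vertical axis, edgeR) by age (horizontal axes, hpf), with 95% intervals. *fosab* lies at -0.37 and 0.18 at 36 hpf, reaches 4.06 and 2.12 at 37 hpf and stands at 0.99 and 0.84 at 84 hpf, GADD45A copy 1 stays above 0 at 37, 60 and 84 hpf, and the intervals of GADD45A copy 2 include 0 throughout.

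The samples of 60 and 84 hpf show whether these genes were still high 24 and 48 h after irradiation, and these tests use other libraries than those of 37 hpf. The genes were chosen with results of the whole series known, so these tests are not shown to be free of that choice. At 60 hpf *fosab* stood at 3.93, 8.05 and 14.4 CPM in XR larvae, against 0, 1.97 and 2.65 CPM in Cont larvae. Every XR larva was above every Cont larva, and *fosab* rose 4.99-fold (log2 fold change 2.32 with SE 0.41, adjusted p = 0.00143 by edgeR's quasi-likelihood test over 16319 genes). In larvae given folic acid, *fosab* had 4.30, 7.72 and 8.64 CPM in FA + XR, against 0, 1.70 and 4.45 CPM in FA. Here 5 of 6 FA + XR larvae lay above all FA larvae, and *fosab* rose 2.82-fold (log2 fold change 1.497 with SE 0.39, edgeR adjusted p = 0.0683). That call was lost without the 2 FA libraries of low TMM factor (log2 fold change 1.32, adjusted p = 0.448). It was also lost in 7 of 12 fits that left out 1 library, with an adjusted p up to 0.214, while the fold change stayed between 1.37 and 1.72 on the log2 scale. With total-count scaling, where the median of all genes was 0.33, *fosab* was called (1.77, adjusted p = 0.0594, by edgeR).

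GADD45A copy 1 had 11.8, 12.3 and 13.1 CPM in XR larvae of 60 hpf (lowest, median and highest), against 2.92, 4.50 and 8.00 CPM in Cont larvae. In the XR library of 1031534 counts, 3 counts equal 2.36 CPM, so nothing is read from the narrow range in XR. The groups did not overlap, and copy 1 rose 2.44-fold (log2 fold change 1.29 with SE 0.28, edgeR adjusted p = 0.0251). Leaving out the Cont library of 7902422 counts, the lowest of its group, ended this call (log2 fold change 1.13, adjusted p = 0.121). With folic acid the levels of copy 1 were 5.65, 9.81 and 12.6 CPM in FA + XR larvae, against 1.24, 4.91 and 6.99 CPM in FA larvae. It rose 1.98-fold (log2 fold change 0.99 with SE 0.28, edgeR adjusted p = 0.0944), with 5 of 6 FA + XR larvae above all FA larvae, and this call held in only 1 of 12 fits that left out a library, with an adjusted p up to 0.229. It was also lost without the 2 FA libraries of low TMM factor (1.24, adjusted p = 0.113). With total-count scaling, where the median of all genes was 0.33, copy 1 was called (1.34, adjusted p = 0.0137, by edgeR). GADD45A copy 2 did not pass the test in either comparison (log2 fold change -0.08 in FA + XR vs. FA, 95% interval -0.66 to 0.49, and 0.07 in XR vs. Cont, 95% interval -0.50 to 0.65).

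*nupr1a* had 142, 165 and 176 CPM in FA + XR larvae of 60 hpf, against 69, 120 and 218 CPM in FA larvae. It had 102, 137 and 148 CPM in XR larvae, against 57.8, 87.5 and 105 CPM in Cont larvae. Neither comparison passed the test (log2 fold change 0.27 with SE 0.19, adjusted p = 0.665, and 0.66 with SE 0.20, adjusted p = 0.25, by edgeR), although 5 of 6 XR larvae lay above all Cont larvae. Without the 2 FA libraries of low TMM factor the log2 fold change in FA + XR vs. FA was 0.69 (adjusted p = 0.113). With total-count scaling both passed (0.65, adjusted p = 0.043, and 0.68, adjusted p = 0.0391, by edgeR). Together 2 of the 4 genes were called higher in XR vs. Cont at 60 hpf, beside 0.257% of all genes, and 2 of the 4 in FA + XR vs. FA, beside 0.374%. All XR larvae lay above all Cont larvae for 2 of the 4 genes, beside 0.435% of all genes, and for 0 of the 4 in FA + XR vs. FA, beside 0.398%. For *nupr1a* the overlap of FA + XR with FA came from the 2 FA libraries of low TMM factor, at 183 and 218 CPM. With total-count scaling these groups did not overlap, at 171 to 207 CPM in FA + XR and 75.5 to 139 CPM in FA. The share of all genes was not computed with that scaling.

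Of 5 lens markers at 60 hpf, edgeR called *cryba1b* higher in FA + XR vs. FA (log2 fold change 1.49, adjusted p = 0.0489), a call lost without the 2 FA libraries (1.14, adjusted p = 0.392), and none in XR vs. Cont, where 1 had an unadjusted p below 5% and DESeq2 called 0. The summed lens markers ran from 456 to 1039 CPM in FA + XR larvae, against 230 to 760 CPM in FA larvae. They ran from 828 to 1376 CPM in XR larvae, against 632 to 782 CPM in Cont larvae, so that XR and Cont did not overlap. By edgeR no marker of muscle, skin, erythrocytes or neurons was called in these comparisons at 60 hpf, and none was at 0 in all libraries of a group. In FA + XR vs. FA DESeq2 called 1 skin and 2 erythrocyte markers, and 2 skin, 3 erythrocyte and 1 neuronal marker had an unadjusted p below 5%, against 0 of these in XR vs. Cont by either measure. Of all genes, DESeq2 called 150 higher and 797 lower in FA + XR vs. FA. An unadjusted p below 5% was found for 11.4% of all genes there and for 6.15% in XR vs. Cont. These marker counts were not repeated without the 2 FA libraries of low TMM factor. The part of these tissues in the levels of the 4 genes at 60 hpf was not tested.

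At 84 hpf, 48 h after irradiation, GADD45A copy 1 and *nupr1a* were higher in XR than in Cont, and *nupr1a* was also higher in FA + XR than in FA. GADD45A copy 1 had 7.77, 10.9 and 18.3 CPM in XR larvae, against 3.09, 4.50 and 6.54 CPM in Cont larvae. The groups did not overlap, and it rose 2.38-fold (log2 fold change 1.25 with SE 0.29, edgeR adjusted p = 0.0129 over 16127 genes), a call that held in all 12 fits with 1 library left out. With folic acid copy 1 had 4.67, 9.11 and 12.2 CPM in FA + XR larvae, against 0, 4.78 and 6.66 CPM in FA larvae. This difference did not pass (log2 fold change 0.89 with SE 0.30, edgeR adjusted p = 0.243). The FA library at 0 holds 423265 counts, so that a count of 0 allows up to 4.40 CPM.

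*nupr1a* stood at 101, 174 and 202 CPM in XR larvae of 84 hpf, against 90.3, 106 and 137 CPM in Cont larvae. It rose 1.53-fold (log2 fold change 0.61 with SE 0.14, edgeR adjusted p = 0.00951), and 5 of 6 XR larvae lay above all Cont larvae. The exception was the XR library of 700645 counts. With folic acid *nupr1a* had 108, 140 and 156 CPM in FA + XR larvae, against 74.9, 92.1 and 131 CPM in FA larvae. It rose 1.48-fold (log2 fold change 0.56 with SE 0.14, edgeR adjusted p = 0.034), and this call was lost without the FA library of 8530530 counts (0.50, adjusted p = 0.125) or without the FA + XR library of 2984685 counts (0.53, adjusted p = 0.109).

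Some markers of skin, muscle and neurons were also called at 84 hpf. Of all genes, 0.49% were called higher in FA + XR vs. FA and 0.546% in XR vs. Cont at this age. An unadjusted p below 5% was found for 9.18% and 8.94% of all genes in these comparisons. The numbers of all genes called lower are given in the last section. Of 4 skin markers, *krt4* (log2 fold change 0.46, adjusted p = 0.0034) rose in XR vs. Cont, and *krt4* (0.58, adjusted p = 0.000193) and *cyt1* (0.53, adjusted p = 0.00121) in FA + XR vs. FA. The summed level of the skin markers ran from 11666 to 14923 CPM in FA + XR larvae, against 7798 to 10536 CPM in FA larvae, and from 8850 to 13616 CPM in XR larvae, against 9292 to 10282 CPM in Cont larvae. Of 5 muscle markers, 2 rose in FA + XR vs. FA and 1 in XR vs. Cont. Of 7 neuronal marker IDs, 2 fell in each comparison, and their sums ran from 569 to 658 CPM in FA + XR larvae, against 631 to 850 CPM in FA larvae, and from 586 to 684 CPM in XR larvae, against 762 to 905 CPM in Cont larvae. No marker was at 0 in all libraries of a group. The part of these tissues in the levels of *nupr1a* was not tested.

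The level of *fosab* at 84 hpf was 7.53, 9.33 and 13.9 CPM in FA + XR larvae, against 0, 3.86 and 16.9 CPM in FA larvae. It was 5.38, 8.01 and 14.1 CPM in XR larvae, against 2.33, 4.57 and 7.05 CPM in Cont larvae. Neither difference passed the test (log2 fold change 0.99 with SE 0.38, adjusted p = 0.345, and 0.84 with SE 0.36, adjusted p = 0.413, by edgeR). The FA larva at 16.9 CPM is a library of 680281 counts with 18 *fosab* reads, and without it *fosab* passed in FA + XR vs. FA (1.41, adjusted p = 0.0489). GADD45A copy 2 changed by 0.08 (95% interval -0.51 to 0.68) in FA + XR vs. FA and by -0.29 (95% interval -0.86 to 0.27) in XR vs. Cont, and did not pass. At this age 1 of the 4 genes was called higher in FA + XR vs. FA, beside 0.49% of all genes, and 2 of the 4 in XR vs. Cont, beside 0.546%. The groups did not overlap for 1 of the 4 genes in XR vs. Cont, beside 0.329% of all genes.

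Whether the effect of irradiation changed between 60 and 84 hpf was tested in a fit of all 96 libraries. The change of the log2 fold change (84 hpf less 60 hpf) of *fosab* in FA + XR vs. FA was -0.58 (SE 0.63, adjusted p = 0.853), or -0.41 (SE 0.67) without the 2 FA libraries of low TMM factor, and -1.51 (SE 0.64, unadjusted p = 0.0193, adjusted p = 1, by edgeR) in XR vs. Cont, beside 0.0127% of all genes higher and 0% lower there and 0.0191% higher in FA + XR vs. FA. The smaller effect at 84 hpf is therefore not shown to differ from that at 60 hpf. Between these ages *fosab* rose in Cont larvae, which had 2.33, 4.57 and 7.05 CPM at 84 hpf, against 0, 1.97 and 2.65 CPM at 60 hpf (log2 fold change 1.45 with SE 0.48, edgeR adjusted p = 0.0568, beside 4.41% of all genes higher). In XR larvae the means were 8.28 ± 3.09 CPM at 84 hpf and 8.49 ± 3.44 CPM at 60 hpf (SD, n = 6). The changes of GADD45A copy 1 and *nupr1a* between these ages in XR vs. Cont were -0.07 (SE 0.48) and -0.08 (SE 0.24).

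At 36 hpf, the age of irradiation itself, 0 of the 4 genes were called in XR vs. Cont or in FA + XR vs. FA by edgeR, beside 0.0138% and 0% of all genes called higher. At an unadjusted p below 5% there were 2 genes in XR vs. Cont (GADD45A copy 1 and *nupr1a*) and 0 in FA + XR vs. FA. Of all genes 9.03% and 4.24% had such a p in these comparisons. DESeq2 called *nupr1a* in XR vs. Cont, where it gave no adjusted p for the other 3 genes. *fosab* was low in every group, between 0 and 5.13 CPM. *nupr1a* had 52.1, 85.8 and 107 CPM in XR larvae and 70, 83.4 and 108 CPM in FA larvae, against 55.7, 63.1 and 65.9 CPM in Cont larvae. All FA larvae (a pattern of 0.118% of all genes) and 5 of 6 XR larvae lay above all Cont larvae, at log2 fold changes of 0.54 (SE 0.14, adjusted p = 0.443) and 0.45 (SE 0.14, adjusted p = 0.278) by edgeR. Muscle and erythrocyte markers had medians of 0.58 and 0.31 in FA vs. Cont and of 0.51 and 0.41 in XR vs. Cont at this age, with none of the 5 and 5 IDs called. The summed erythrocyte markers had medians of 18015 CPM in FA and 16142 CPM in XR larvae, against 7494 CPM in Cont larvae. For the summed muscle markers these were 10191 and 10491 CPM, against 6667 CPM. The ranges overlapped in each case. The part of these tissues in the *nupr1a* values was not tested. The same Cont libraries enter both comparisons of *nupr1a*.

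The question put to the FA + XR groups is whether folic acid changed the response. In FA + XR vs. XR, edgeR called 0 of the 4 genes at 36, 37, 60 or 84 hpf, beside at most 0.0062% of all genes in a direction, with 0 at an unadjusted p below 5% and 0 by DESeq2 at each age. An unadjusted p below 5% was found for 4.05%, 3.6%, 3.09% and 3.65% of all genes at these ages. At 37 hpf the log2 difference was 0.01 (95% interval -0.94 to 0.95) for *fosab*, 0.02 (-0.75 to 0.78) for GADD45A copy 1, -0.31 (-1.02 to 0.41) for GADD45A copy 2 and -0.17 (-0.54 to 0.20) for *nupr1a*. At 60 hpf it was -0.28 (95% interval -0.96 to 0.40) for *fosab*, -0.35 (-0.86 to 0.17) for copy 1 and 0.29 (-0.09 to 0.67) for *nupr1a*. At 84 hpf it was 0.23 (95% interval -0.45 to 0.91) for *fosab*, -0.35 (-0.90 to 0.20) for copy 1 and -0.26 (-0.52 to 0.01) for *nupr1a*. These intervals leave room for changes of up to about 1 on the log2 scale for *fosab* and do not show that the groups were alike.

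The effect of irradiation with folic acid less that without it was tested at 60 and 84 hpf, and edgeR called 0 of the 4 genes at each age, with 0 at an unadjusted p below 5% and 0 by DESeq2. Across the 16319 and 16127 genes tested at these ages, edgeR called 0% in either direction. Its unadjusted p lay under 5% in 6.41% and 3.97% of them. The lack of calls in this interaction is therefore not particular to the 4 genes. At 60 hpf this interaction was -0.82 (95% interval -1.92 to 0.27) for *fosab*, -0.30 (-1.08 to 0.48) for GADD45A copy 1 and -0.40 (-0.94 to 0.14) for *nupr1a*. Without the 2 FA libraries of low TMM factor, FA + XR vs. FA moved from 1.497 to 1.32, from 0.99 to 1.24 and from 0.27 to 0.69 for these genes. XR vs. Cont stood at 2.32, 1.29 and 0.66. Leaving out only the FA library of 5295573 counts put the *nupr1a* interaction at -0.20, so nothing is read from its -0.40. At 84 hpf it was 0.14 (95% interval -0.88 to 1.17) for *fosab*, -0.36 (-1.18 to 0.46) for copy 1 and -0.05 (-0.43 to 0.34) for *nupr1a*. At 37 hpf it was 1.94 (SE 0.83) for *fosab* and -0.75 (SE 0.27) for *nupr1a*, given as a description. Folic acid alone was tested at 37 hpf too. *fosab* had 0, 0.385 and 1.38 CPM in FA larvae, against 0, 1.2 and 5.60 CPM in Cont larvae, and the difference of -1.94 (SE 0.69, unadjusted p = 0.00781, edgeR adjusted p = 0.98) did not pass. *nupr1a* had 36.7, 76.2 and 100 CPM in FA larvae, against 36.4, 42 and 71.1 CPM in Cont larvae, with 4 of 6 FA larvae above all Cont larvae. Its difference of 0.59 (SE 0.19, unadjusted p = 0.00382, edgeR adjusted p = 0.98) did not pass either. These FA and Cont libraries are also the references of the 37 hpf contrasts treated as behind the choice of the genes. Nothing is therefore read from these p-values at 37 hpf.

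*nupr1a* was the only gene of the 4 called in FA vs. Cont by edgeR over 36, 37, 60 and 84 hpf, and only at 60 hpf, where that call was also lost in 7 fits that left out 1 library. All genes called higher in this comparison made up 0.0138%, 0%, 1.32% and 0.0248% at these ages. It had 69, 120 and 218 CPM in FA larvae, against 57.8, 87.5 and 105 CPM in Cont larvae (log2 fold change 0.68 with SE 0.20, edgeR adjusted p = 0.0976, beside 1.32% of all genes called higher). The 2 FA larvae with the highest values, 183 and 218 CPM, are the 2 libraries of low TMM factor. Without them the log2 fold change was 0.26 (adjusted p = 1), and with total-count scaling it was 0.25 (adjusted p = 0.358). Skin and erythrocyte markers were also higher in this comparison, with 2 of 4 and 2 of 5 called, but of the 6 list genes called higher here, *nupr1a* and these markers included, 0 were called without the 2 FA libraries or with total-count scaling. The summed skin markers ran from 13937 to 33204 CPM in FA larvae, against 10505 to 17889 CPM in Cont larvae, and the summed erythrocyte markers from 8722 to 29004 CPM in FA larvae, against 6990 to 13682 CPM in Cont larvae. Their part in the *nupr1a* difference was not tested.

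The 2 GADD45A copies and the 2 NUPR1 copies were compared within libraries, where scaling cancels. The log2 ratio of GADD45A copy 1 to copy 2 at 60 hpf averaged 0.41 ± 0.70 in FA + XR larvae and -0.77 ± 0.92 in FA larvae, and 0.54 ± 0.56 in XR larvae and -0.78 ± 0.73 in Cont larvae (SD, n = 6 each). The differences were 1.18 (exact permutation p = 0.0303, two-sided, adjusted p = 0.0346) and 1.32 (exact permutation p = 0.00433, adjusted p = 0.00693). At 84 hpf they were 1.23 (exact permutation p = 0.0346, adjusted p = 0.0346) in FA + XR vs. FA and 1.49 (exact permutation p = 0.00649, adjusted p = 0.00866) in XR vs. Cont. The lowest FA ratios at 84 hpf, -2.63 and -2.32, came from libraries of 680281 and 423265 counts. The other FA ratios there ran from -1.23 to -0.36. Without the 2 FA libraries of low TMM factor the difference in FA + XR vs. FA at 60 hpf was 1.42 (exact permutation p = 0.0238, 6 against 4 larvae). The 4 FA larvae left include the library of 767872 counts, which had the lowest FA ratio, -2.32. No ratio was tested without libraries of low depth. At 36 hpf the differences were -0.28 in FA + XR vs. FA (exact permutation p = 0.361, adjusted p = 0.723) and 0.50 in XR vs. Cont (exact permutation p = 0.0606, adjusted p = 0.242, over 4 tests). Adjustment at 60 and 84 hpf covered the 8 tests of both ratios at these ages, and these ratios were added after results were seen. The sources used here do not say how any reads shared by 2 copies were assigned, so part of the counts of a copy may belong to the other. How alike the copies are in sequence was not examined.

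The ratio of the NUPR1 copies was higher in irradiated larvae at 60 and 84 hpf. These tests too were added after results were seen. The log2 ratio of *nupr1a* to *nupr1b* at 60 hpf averaged 1.29 ± 0.48 in FA + XR larvae and 0.09 ± 0.35 in FA larvae (SD, n = 6 each). In XR and Cont larvae it averaged 1.02 ± 0.37 and 0.00 ± 0.34. The differences were 1.196 and 1.02 (exact permutation p = 0.00433 and adjusted p = 0.00693 for each), and without the 2 FA libraries the first was 1.14 (exact permutation p = 0.00952). At 84 hpf the ratio differed by 0.81 in FA + XR vs. FA and by 1.23 in XR vs. Cont, and in both comparisons all 6 irradiated larvae lay above all unirradiated larvae (exact permutation p = 0.00216, the smallest that 6 against 6 allow, adjusted p = 0.00693 for each). At 36 hpf the differences were 0.16 and -0.07, with exact permutation p of 0.608 and 0.79 (adjusted p = 0.79 for each over 4 tests). *nupr1b* itself fell in XR vs. Cont at 84 hpf (log2 fold change -0.58 with SE 0.16, edgeR adjusted p = 0.0773), while its log2 fold change in FA + XR vs. FA was -0.24 (adjusted p = 0.744). At 60 hpf it was called lower in FA + XR vs. FA (-0.91 with SE 0.25, adjusted p = 0.0857), a call lost without the 2 FA libraries (-0.40, adjusted p = 0.999) and with total-count scaling (-0.53, adjusted p = 0.25), and it stood at -0.28 (adjusted p = 0.987) in XR vs. Cont. At 84 hpf it had 66.4, 119 and 195 CPM in XR larvae, against 137, 187 and 225 CPM in Cont larvae.

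**Figure D3:**
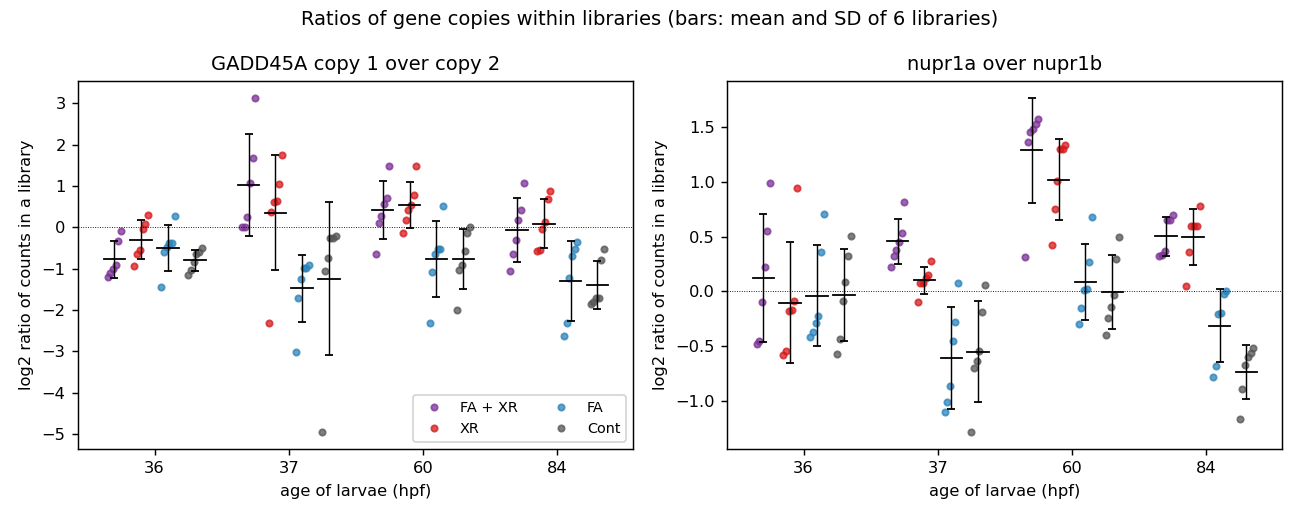
Log2 ratio of counts of GADD45A copy 1 to copy 2 and of nupr1a to nupr1b within each library (vertical axes) by age (horizontal axes, hpf). Points are single larvae of FA + XR, XR, FA and Cont, and bars give the mean and SD of 6 libraries. At 84 hpf the nupr1a to nupr1b ratio averages 0.50 in FA + XR and 0.50 in XR, above the -0.31 of FA and the -0.73 of Cont.

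Among the other FOS genes, FOSL1 (ENSDARG00000015355), which encodes an AP-1 subunit that is induced later than FOS in mammalian cells, rose in XR vs. Cont at 60 hpf. It had 0, 3.61 and 6.42 CPM in XR larvae, against 0, 0.408 and 1.99 CPM in Cont larvae (log2 fold change 2.46 with SE 0.63, edgeR adjusted p = 0.0965), so the groups overlapped. At 84 hpf its log2 fold change was 2.13 (adjusted p = 0.206) in FA + XR vs. FA and 1.92 (adjusted p = 0.205) in XR vs. Cont. FOSB and FOSL2 did not pass in any irradiation contrast. *fosaa* was at 0 in all but 4 of the 96 libraries, and *fosl2l* in all 96.

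Few other immediate early genes, the AP-1 partners of *fosab* included, passed the test, and few of all genes did. Besides *fosab*, 42 of the 43 symbols on the list of immediate early genes were found, as 41 further IDs. At 37 hpf 32 of these were tested and edgeR called 0 in FA + XR vs. FA and 0 in XR vs. Cont (3 and 1 at an unadjusted p below 5%, and 0 and 0 by DESeq2), with medians of 0.03 and -0.04 on the log2 scale. The medians of all genes were -0.02 and -0.01. Of all genes 0.0556% were called higher in each comparison, and 4.14% and 4.83% had an unadjusted p below 5%. Nothing is therefore read from the lack of calls in the list at 37 hpf. At 60 hpf 0 and 1 of 37 were called (FOSL1), and at 84 hpf 0 and 1 (ATF3, log2 fold change 1.205 with SE 0.36, adjusted p = 0.0963), an AP-1 family member and stress factor. Called higher were 0.374% and 0.257% of all genes at 60 hpf and 0.49% and 0.546% at 84 hpf. At an unadjusted p below 5% there were 12 in FA + XR vs. FA and 7 in XR vs. Cont of 37 tested at 84 hpf, where 9.18% and 8.94% of all genes had such a p. The list medians were 0.23 and 0.23, against 0.01 and 0.00 for all genes. JUN, which forms the classical AP-1 dimer with FOS, changed by 0.07 and -0.05 at 37 hpf, by 0.26 and 0.38 at 60 hpf and by 0.27 and 0.41 at 84 hpf (lowest adjusted p = 0.273). *egr1*, an immediate early gene under SRF control, changed by -0.47 and -0.95 at 37 hpf (adjusted p = 0.995 and 0.999). Of 18 IDs upstream of FOS (MAP kinases, SRF and CREB), 9, 10, 14 and 13 were tested at 36, 37, 60 and 84 hpf, and edgeR and DESeq2 called 0 in FA + XR vs. FA or XR vs. Cont, with at most 2 at an unadjusted p below 5%. Over these comparisons 4.14% to 11.4% of all genes had such a p. An ID to which DESeq2 gave no adjusted p counts as not called here, so nothing is read from its 0 calls.

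**Figure D4:**
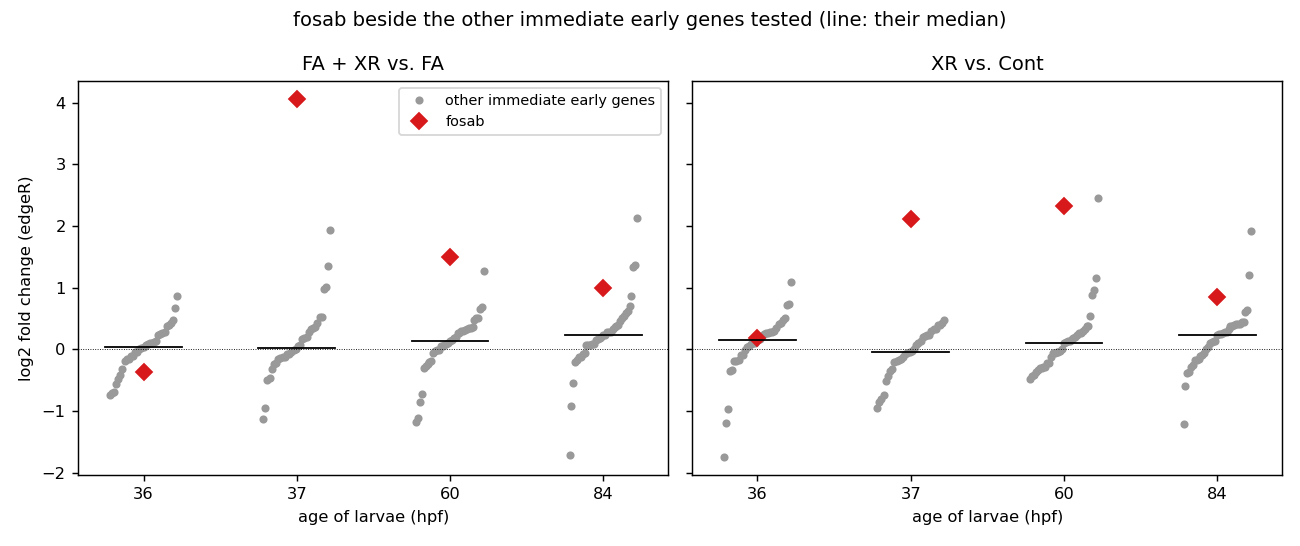
Log2 fold changes of fosab (diamonds) and of the other immediate early genes tested (grey points, each at its own horizontal position) in FA + XR vs. FA and XR vs. Cont, by age in hpf. The black line is the median of the other genes. fosab lies at 4.06 and 2.12 at 37 hpf, values treated as behind its choice, and FOSL1 lies at 2.46 in XR vs. Cont at 60 hpf.

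Of the other GADD45 genes edgeR called none higher in XR vs. Cont or FA + XR vs. FA at 36, 37, 60 or 84 hpf, and in either direction DESeq2 called 1 ID there, in XR vs. Cont at 60 hpf. Of 5 other IDs, which encode GADD45B and GADD45G proteins with similar roles in stress kinase signalling, 1 was called in XR vs. Cont at 60 hpf, and it fell. This was GADD45G (ENSDARG00000016725), with 26.2, 34.4 and 44.1 CPM in XR larvae, against 57.8, 72.5 and 108 CPM in Cont larvae (log2 fold change -1.198 with SE 0.20, edgeR adjusted p = 0.000733). Of all genes 6.15% had an unadjusted p below 5% in XR vs. Cont at 60 hpf. The number of all genes called lower there is given in the last section. Its log2 fold change in FA + XR vs. FA at that age was -0.24 (SE 0.20, adjusted p = 0.702). Of the proteins that GADD45A binds, *cdkn1a*, which encodes the CDK inhibitor p21, rose at 60 hpf, in FA + XR vs. FA by 3.18 (SE 0.76, adjusted p = 0.0491) and in XR vs. Cont by 4.31 (SE 0.87, adjusted p = 0.00991), and by 3.01 (SE 0.88, adjusted p = 0.0936) in XR vs. Cont at 84 hpf. The call in FA + XR vs. FA was lost without the 2 FA libraries of low TMM factor (3.61, adjusted p = 0.11). PCNA, the sliding clamp of DNA replication, rose by 0.61 (adjusted p = 0.00579) and CDK1, the mitotic kinase, by 0.48 (adjusted p = 0.083) in FA + XR vs. FA at 84 hpf. At that age PCNA and CDK1 were not called in XR vs. Cont, and *cdkn1a* was not called in FA + XR vs. FA. A call in 1 comparison alone does not show that the comparisons differ, and the interaction called 0% of all genes at 84 hpf. *map3k4* passed in no irradiation contrast.

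Of 23 IDs of the p53 pathway, 20 were tested at 37, 60 and 84 hpf. In FA + XR vs. FA 2, 7 and 4 rose, in XR vs. Cont 2, 6 and 6 rose, and none fell. Of all genes 0.0556%, 0.374% and 0.49% were called higher in FA + XR vs. FA and 0.0556%, 0.257% and 0.546% in XR vs. Cont at these ages. The 2 genes at 37 hpf were *mdm2*, whose protein degrades p53, and PHLDA3, an inhibitor of AKT, and both were also called at 60 and 84 hpf. The log2 fold change of *mdm2* was 1.55, 1.74 and 1.66 in FA + XR vs. FA and 1.67, 1.97 and 1.68 in XR vs. Cont at 37, 60 and 84 hpf. The list median in FA + XR vs. FA was 0.37, 0.53 and 0.44, against -0.02, 0.06 and 0.01 for all genes. In XR vs. Cont it was 0.35, 0.34 and 0.09 at these ages, against -0.01, -0.00 and 0.00 for all genes. This list overlaps with genes known to respond in these libraries, so its counts are no independent evidence.

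In the integrated stress response, through which NUPR1 is in part induced in mammalian cells, 20 IDs besides *nupr1a* were listed. CHAC1, a target of ATF4, fell in XR vs. Cont at 84 hpf (log2 fold change -0.53 with SE 0.14, adjusted p = 0.0558), and ATF3 and *nupr1b* are given above. Of all genes 8.94% had an unadjusted p below 5% in XR vs. Cont at 84 hpf, and the number called lower is given in the last section. The factor *atf4a* changed by -0.23 and -0.02 at 37 hpf, 0.17 and 0.04 at 60 hpf and 0.10 and -0.01 at 84 hpf in FA + XR vs. FA and XR vs. Cont (lowest adjusted p = 0.747). For the unfolded protein response, edgeR and DESeq2 called 0 of 16 IDs in these 2 comparisons at each age, with at most 3 at an unadjusted p below 5%. Over these comparisons 4.14% to 11.4% of all genes had such a p. Here too an ID without an adjusted p from DESeq2 counts as not called. Of the heat shock genes, the cytosolic chaperone *hsp90aa1.1* rose in XR vs. Cont at 60 hpf (log2 fold change 0.89 with SE 0.18, adjusted p = 0.013), and HSPE1, a mitochondrial chaperonin subunit, was called lower in FA + XR vs. FA at 60 hpf (-0.64 with SE 0.18, adjusted p = 0.0963), a call lost without the 2 FA libraries of low TMM factor (-0.25, adjusted p = 0.999) and with total-count scaling (-0.27, adjusted p = 0.265). At 60 hpf *hsp90aa1.1* was not called in FA + XR vs. FA, nor HSPE1 in XR vs. Cont.

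Over the 16 groups, the mean level of *fosab* ran from 0.56 CPM (FA at 37 hpf) to 9.88 CPM (FA + XR at 84 hpf). The 6 irradiated groups of 37, 60 and 84 hpf held the top 6 places, from 7.13 CPM upward, and no neighbours among them differed by more than the larger SD of the pair. FA at 84 hpf, the next group (5.60 CPM, SD 6.13), lay 1.52 CPM below them, also less than the larger SD. GADD45A copy 1 ran from 3.75 CPM (Cont at 37 hpf) to 18.3 CPM (FA + XR at 37 hpf), and the irradiated groups of 37, 60 and 84 hpf again held the top 6 places, with no neighbouring means apart by more than the larger SD. For both genes the groups of 37 hpf hold values treated as behind the choice of the genes. GADD45A copy 2 ran from 7.39 CPM (FA + XR at 60 hpf) to 14.1 CPM (FA at 37 hpf), with irradiated and unirradiated groups mixed along the order. *nupr1a* ran from 47.5 CPM (Cont at 37 hpf) to 165 CPM (XR at 84 hpf), and its neighbours differed by more than the larger SD in 3 places. With age *nupr1a* also rose in unirradiated larvae, by 0.61 (SE 0.17, adjusted p = 0.00579, beside 15.4% of all genes higher) in FA and by 0.42 (SE 0.17, adjusted p = 0.0549, beside 19.7%) in Cont for 60 vs. 36 hpf. From 84 vs. 60 hpf in FA its log2 fold change was -0.51 (SE 0.17, adjusted p = 0.0332, beside 10.5% of all genes lower) with TMM factors, but 0.11 (adjusted p = 0.597) with total-count scaling. Without the 2 FA libraries of low TMM factor both changes in FA lost their call, at 0.20 (adjusted p = 0.466) for 60 vs. 36 hpf and -0.10 (adjusted p = 0.898) for 84 vs. 60 hpf.

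The genes whose levels were most like those of the 4 over all 96 libraries were sought among 12035 genes, by Pearson's r of log2 CPM, as a description of libraries that share treatment, age and depth. For *fosab* these were *mdm2* (r = 0.64), PHLDA3 (0.63), *bmb* (0.62), si:dkey-85n7.7 (0.61) and *bbc3* (0.57), which encodes the apoptosis activator PUMA. For GADD45A copy 1 they were *mdm2* (0.66), *rps27l* (0.61), ATF3 (0.60), *isg20* (0.60) and MBIP (0.58). For *nupr1a* they were MMP2, a matrix protease (0.78), the keratin *krt91* (0.72), ENSDARG00000102572 (0.71), the keratin *krt1-19e* (0.71) and *smdt1a* (0.71). For GADD45A copy 2 they were *dhrs11b.1* (0.48), *cars2* (0.45), ALDH6A1 (0.45), *glmp* (0.44) and SLC15A2 (0.44). For comparison, 1% of genes exceeded 0.43 for *fosab*, 0.42 for copy 1, 0.61 for *nupr1a* and 0.35 for copy 2. Among themselves, *fosab* and GADD45A copy 1 had r = 0.54, *fosab* and *nupr1a* 0.49, and the 2 GADD45A copies 0.22. After the group means were taken out, so that only larvae of 1 group were compared with each other, these values were 0.40, 0.10 and 0.30, and the deviations of copy 1 had r = 0.51 with log2 library totals. By these deviations the gene most like *fosab* was *spata2l* (0.61), and BIN2, *gpank1* and *tbrg4* were also among the most alike (0.54 to 0.56). For GADD45A copy 1 it was *nol12* (0.75), followed by MBIP, *cldn15b*, APOBEC2 and NUDT21 (0.68 to 0.69), and for *nupr1a* UBE2C (0.64), followed by MT-CO2, *ndufa5*, ENSDARG00000102594 and MT-ND3 (0.60 to 0.63).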

How the data were processed

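The authors sequenced single whole larvae (150 bp paired reads) and quantified them against the Ensembl GRCz11 cDNA set. The quantifier is not given in the sources used here. The deposited table holds expected counts of 25907 gene IDs in 96 libraries, of which 3 values are not whole, and these were rounded. Groups came from the deposited table of library properties, matched to the labels, and no column was left unmapped. Symbols were found for 23608 IDs. Libraries of an age were fitted together in edgeR 4.0.16 (R 4.3.3) with TMM factors, the quasi-likelihood F test and Benjamini-Hochberg adjustment over the genes whose mean count reached 2.5. Genes with an adjusted p below 10% were called. In counts of DESeq2 calls, an ID to which DESeq2 gave no adjusted p counts as not called. A fit of all 96 libraries gave changes with age. Levels in CPM used TMM factors computed over all 96 libraries, which for the 2 FA libraries of low factor at 60 hpf were 0.64 and 0.72. SE is the log2 fold change over the square root of F, and 95% intervals are normal. Ratios of copies used counts plus 0.5 and exact permutation of 6 against 6 libraries. A floor of 3 counts was used where a count is 0, which covers counting error only.

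The 4 genes and the gene lists were chosen with earlier results of these data known. Besides the 4 genes and their other copies, the text names list genes called in a comparison or those with the smallest p, and the 5 genes most alike by r (of levels and of deviations from group means) where the mean count reached 10. A gene withheld from the text is not reported here. Alternatives were DESeq2 1.42.0, RLE factors, total-count scaling, no filter, filterByExpr, a 5% threshold, fits of only the 12 libraries compared, fits without low-depth libraries, without the 2 FA libraries of low TMM factor, and without each library in turn (96 fits). Total-count scaling, the copy ratios, the change between 60 and 84 hpf and the fit without the 2 FA libraries were chosen after seeing the data. The edgeR step was tested on simulated data. Figures used matplotlib 3.10.9 and Python 3.11.15.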

Additional observations from a re-analysis of the deposited data

Results flagged for a closer look

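In 6 of 64 groups (4 genes in 16 groups of 6 larvae) the highest or lowest larva stood apart from the other 5 by more than Dixon's 95% limit for 6 samples (0.625 of the range), where chance gives about 1 in 20 groups, or 3.2. *fosab* was 14.1 CPM in an XR larva of 84 hpf, and the next was 8.06 CPM. GADD45A copy 1 was 0 CPM in the XR larva of 37 hpf with 581706 counts, and the next was 17.6 CPM. GADD45A copy 2 was 15.5 CPM in a Cont larva of 36 hpf (next 8.39 CPM), 22.7 CPM in the Cont larva of 37 hpf with 648296 counts (next 8.81 CPM) and 3.21 CPM in an FA + XR larva of 60 hpf (next 7.36 CPM). *nupr1a* was 131 CPM in an FA larva of 84 hpf, and the next was 93.8 CPM.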

How the results depend on the processing

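No paired analysis was possible because the count columns carry no replicate numbers. For *fosab* in FA + XR vs. FA at 60 hpf the log2 fold change was 1.54 in a fit of only the 12 libraries and 1.32 without the 2 FA libraries of low TMM factor, both no longer called, and the main value of 1.497 is not called at 5%. With each library left out it ran from 1.37 to 1.72. For GADD45A copy 1 in the same comparison it was 0.99 without a filter, 1.04 with the 12 libraries and 1.24 without the 2 FA libraries, all no longer called, the main 0.99 is not called at 5%, and with each library left out it ran from 0.88 to 1.098. With each library left out GADD45A copy 1 in XR vs. Cont at 60 hpf ran from 1.13 to 1.59, *fosab* in FA + XR vs. FA at 84 hpf from 0.73 to 1.41 and *nupr1a* in FA + XR vs. FA at 84 hpf from 0.50 to 0.69. *nupr1a* became called in XR vs. Cont at 36 hpf with DESeq2 (0.44), in XR vs. Cont at 60 hpf with the 12 libraries (0.66) and total-count scaling (0.68), and in FA + XR vs. FA at 60 hpf with total-count scaling (0.65). *fosab* in FA + XR vs. FA at 84 hpf became called without the low-depth libraries (1.31). In FA at 84 vs. 60 hpf, *nupr1a* turned to 0.11 with total-count scaling. The counts of called genes in FA + XR vs. FA at 60 hpf ranged most, from 17 to 150 higher and from 11 to 797 lower (DESeq2), against 61 and 173. Counts in XR vs. Cont ranged up to 72 higher and 76 lower at 60 hpf, against 42 and 24, and 148 and 167 higher (DESeq2, without low-depth libraries) and 122 lower (5%) at 84 hpf, against 88 and 185. In FA + XR vs. FA at 84 hpf DESeq2 called 176 higher and 180 lower and total-count scaling 175 lower, against 79 and 88. DESeq2 gave no adjusted p for 3 of the 4 genes in XR vs. Cont at 36 hpf, FA vs. Cont at 60 hpf and FA + XR vs. FA at 60 and 84 hpf, which stay out of the comparison. Depth limits *fosab*, with 0 to 5 reads per FA library and 0 to 9 per Cont library at 37 hpf.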
